A study of Komagataella phaffii GS115 with 9 samples.

Results

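The decrease of 117 genes of *P. pastoris* in a heat- and peroxide-tolerant mutant cultured at 37 °C is described here. These genes were chosen by their measured values in all 9 RNA-seq libraries of the series. With log2(FPKM + 1) averaged in each group, a gene was taken if G14_37 lay at least 1.2 below G14_28, if G14_28 and Parent_28 differed by less than 0.4, and if a group mean reached 5 FPKM. FPKM is the number of reads on a gene divided by its length and by the size of its library, so that levels of different genes can be compared. Of 5557 features in the deposited table, 5475 are tags of the 4 chromosomes and 5368 of these reach the level of 5. The 117 members are 2.18% of those 5368. A further 7 tags met the same limits but were set aside by the rule, which leaves out 158 tags of named regions and of single genes. Each gene is named by its locus tag, without the prefix that all tags share.

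G14_37 and G14_28 are cultures of the same strain, an oxidative and thermal stress cross-tolerant mutant obtained by adaptive laboratory evolution and called the robust mutant. Parent_28 is its parent, called the WT. The number in each group name is the temperature of induction in °C. Cells of 3 replicate cultures of each group were collected at 60 h, in flasks with BMGY/BMMY medium. The study gives methanol as the inducer and sole carbon source of the induced cultures. Both strains carry a lipase gene under the methanol-inducible promoter of *AOX1*, so the controls carried it too. The mutant is a single evolved strain, and the WT at 37 °C was not analysed here, so the temperature difference is known for the mutant only.

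*P. pastoris* is a methylotrophic yeast that oxidises methanol in peroxisomes, where hydrogen peroxide is released, and 37 °C lies above the temperature at which it is usually induced. When yeast cells are moved to a higher temperature, many transcripts change in level at once, those of chaperones often upwards and those of growth and biosynthesis often downwards. Which of these roles the members have cannot be said from the files. The table pairs no tag with a gene name, and the reference table for strain GS115 shares 0 tags with it. The members are therefore ordered by the size of their decrease, by their level, by their relation to the WT and by their place among the tags.

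Whole reads were recovered for each value above 0, and the libraries held 13925952 to 15945465 reads in G14_37, 13131111 to 13781390 reads in G14_28 and 13655260 to 13998350 reads in Parent_28. The first library of G14_37 stands apart from the others of its group. Its reads differed from those of the other two with a chi-square of 49.95 and 48.7 per degree of freedom, against 3.85 to 8.60 for every other pair of replicates. No pair was alike within sampling noise. Values of the members as a set without this library are given with the spread of the replicates. The deposited values also contain a scaling between libraries, with library sizes 1.15 to 1.23 times the recovered reads in G14_37, 0.900 to 0.925 times in G14_28 and 0.874 to 0.879 times in Parent_28. Under a scaling to the summed reads, the median difference between G14_37 and G14_28 over the 5368 tags was 0.37 in place of -0.022 on the log2 scale. Then 46 tags met the rule and 44 of them were among the 117. On that scale the difference closest to 0 among the 117 members was -0.81.

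The median difference between G14_37 and G14_28 over the members was -1.48 on the log2 scale, which is 2.79-fold lower in G14_37. The differences ranged from -4.49 to -1.203, with quartiles of -1.87 and -1.31. They are not spread evenly, since 60 members lay above -1.5, 33 from -2 to -1.5, 20 from -3 to -2, and only 4 at -3 or below. The limma standard error of these differences had a median of 0.076, and it exceeded 0.2 of the difference in size for CHR3-0916 and CHR2-0225 alone among the 117 members. Across the 9 pairings of a G14_37 library with a G14_28 library, the median difference of the members stayed from -1.57 to -1.45. In 8 of these pairings all 117 members were lower in the G14_37 library, and in the remaining one 116 were. Because the rule used this contrast, the differences describe the choice of members and test nothing.

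**Figure D1:**
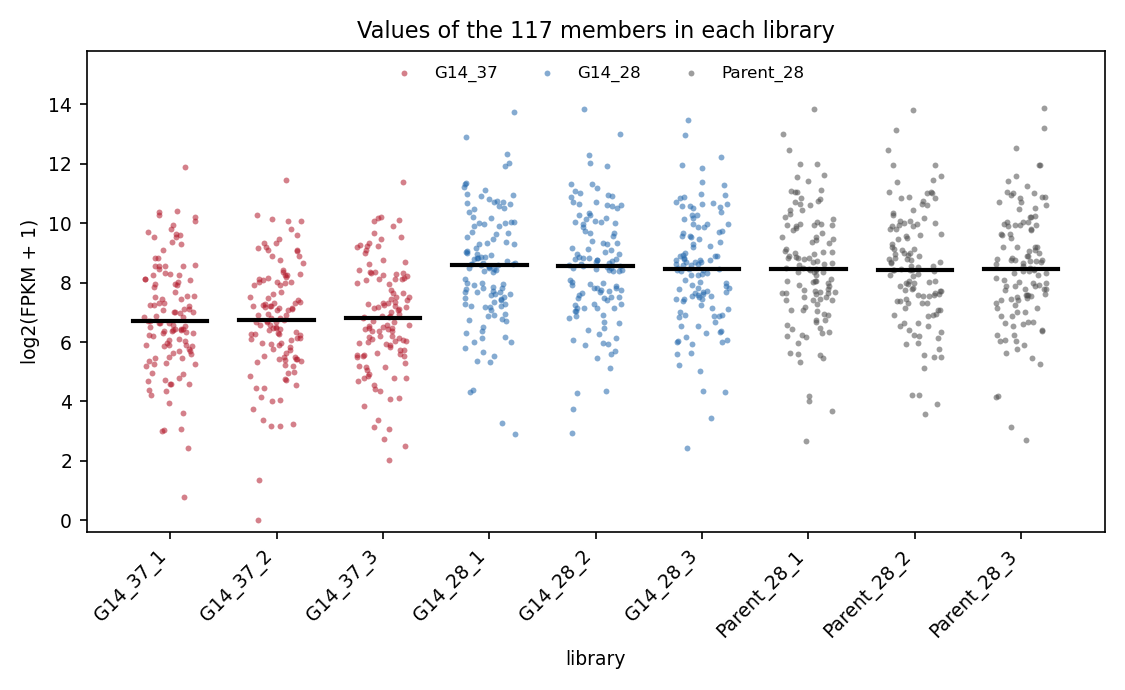
Each point is one of the 117 members in one library, with log2(FPKM + 1) on the vertical axis, and the black bar is the median of the library. The medians lie from 6.69 to 6.82 in the G14_37 libraries, from 8.47 to 8.60 in the G14_28 libraries and from 8.43 to 8.47 in the Parent_28 libraries.

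By limma on log2(FPKM + 1), all 117 members were called lower in G14_37 than in G14_28, at the limits of 0.05 on the adjusted p and of 1 on the size of the log2 difference. Among all 5459 tags tested, 385 or 7.05% were called lower. Under the scaling to summed reads, 71 of the 117 members were called lower, and 174 or 3.19% of 5458 tags tested. In 116 members every G14_37 value lay below every G14_28 value, and over all tested tags this share was 38.4%. The lowest G14_28 value was at least 2 times the highest G14_37 value in 110 members, a gap that the rule favours and that was not counted over all tested tags. As the contrast is that of the rule, both counts are given for completeness. The exception to the separation is CHR2-0225, which is described with the members of few reads.

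The member with the largest decrease was CHR4-0342, which was also the most abundant member at 28 °C. It had 833, 472 and 504 FPKM in G14_37, against 13634, 14679 and 11303 FPKM in G14_28 and 14809, 14446 and 15087 FPKM in Parent_28. The difference between G14_37 and G14_28 was -4.49 on the log2 scale, with a standard error of 0.21. Its place among the tags of the 4 chromosomes, ranked by mean level, was 161 in G14_37, 2 in G14_28 and 4 in Parent_28. The high value among the G14_37 cultures is that of the first library, the one that stands apart, and the groups do not overlap. Without that library the difference was -4.75. Its length, as recovered from the values, is 354 bases.

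CHR3-0913 followed with 116, 111 and 114 FPKM in G14_37, against 1632, 1576 and 1617 FPKM in G14_28 and 1569.7, 1587 and 1667 FPKM in Parent_28. Its replicates lay close together in each group, and the difference of -3.81 between G14_37 and G14_28 has a standard error of 0.055. In G14_28 and Parent_28 the means were 1609 and 1608 FPKM, and their values overlap. Rank by level was 1520 in G14_37, 66 in G14_28 and 80 in Parent_28.

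CHR2-0303 had 59.0, 56.7 and 52.4 FPKM in G14_37, against 539, 559.9 and 480.3 FPKM in G14_28 and 639.6, 623 and 476 FPKM in Parent_28. The values of both groups at 28 °C overlap and those at 37 °C lie below them, with a ratio of means, G14_28 over G14_37, of 9.40. CHR4-0658 had 202, 164 and 200.4 FPKM in G14_37, against 1671, 1618 and 1539.8 FPKM in G14_28 and 1696, 1700.4 and 1673 FPKM in Parent_28. It kept more of its level at 37 °C than CHR3-0913 did, with a log2 difference of -3.09 against -3.81. These 4 tags are the members with a difference of -3 or below.

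The next members had differences from -2.98 to -2.60. CHR1-0661 had 39.8, 44.0 and 46.5 FPKM in G14_37, against 370.0, 381 and 305 FPKM in G14_28 and 351, 308 and 237 FPKM in Parent_28. Its values in Parent_28 spread more widely than those of most members, and both groups at 28 °C overlap. CHR1-0045 had 61.4, 52.3 and 55.7 FPKM in G14_37, against 459, 454 and 445 FPKM in G14_28 and 499, 486 and 445 FPKM in Parent_28, and CHR1-0218 had 44.4, 35.6 and 44.8 FPKM in G14_37, against 341, 333 and 302 FPKM in G14_28 and 350.1, 343 and 361 FPKM in Parent_28. Both had small strain differences, with log2 differences of -0.073 and -0.11 between G14_28 and Parent_28, and the ratios of their means, G14_28 over G14_37, were 8.02 and 7.81.

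CHR3-1176 had 30.1, 31.2 and 32.4 FPKM in G14_37, against 247, 239.5 and 220.4 FPKM in G14_28 and 201, 193 and 191 FPKM in Parent_28. It was 0.27 higher in G14_28 than in Parent_28 on the log2 scale, without overlap, so its decrease to G14_37 is larger than its distance from the WT, at -2.88 against -2.60. CHR2-1072, the member of this group with the lowest level, had 11.4, 9.47 and 9.39 FPKM in G14_37, against 77.5, 75.7 and 62.7 FPKM in G14_28 and 73.1, 72.6 and 74.2 FPKM in Parent_28. Its groups at 28 °C overlap and its mean in G14_37 was 10.1 ± 1.11 FPKM (SD, n = 3). CHR3-0205 had 89.0, 100.3 and 101 FPKM in G14_37, against 635, 642 and 622 FPKM in G14_28 and 736, 772 and 796 FPKM in Parent_28, and in contrast to CHR3-1176 it was lower in G14_28 than in Parent_28, with a log2 difference of -0.28.

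CHR1-1155, with a length of 219 bases, had 157, 178 and 183 FPKM in G14_37, against 1042, 1166 and 1005 FPKM in G14_28 and 869.7, 883 and 896 FPKM in Parent_28. It is the last of a row of 3 neighbouring members described later. CHR1-0737 had 22.8, 21.0 and 19.4 FPKM in G14_37, against 143, 139.8 and 117 FPKM in G14_28 and 182, 173 and 141 FPKM in Parent_28, with log2 differences of -2.60 between G14_37 and G14_28 and -2.91 between G14_37 and Parent_28. In each of these 12 members all G14_37 values lay below all values at 28 °C, which their choice by the largest decrease favours. Over all tested tags, the share was 38.4% against G14_28 and 40.9% against Parent_28.

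**Figure D2:**
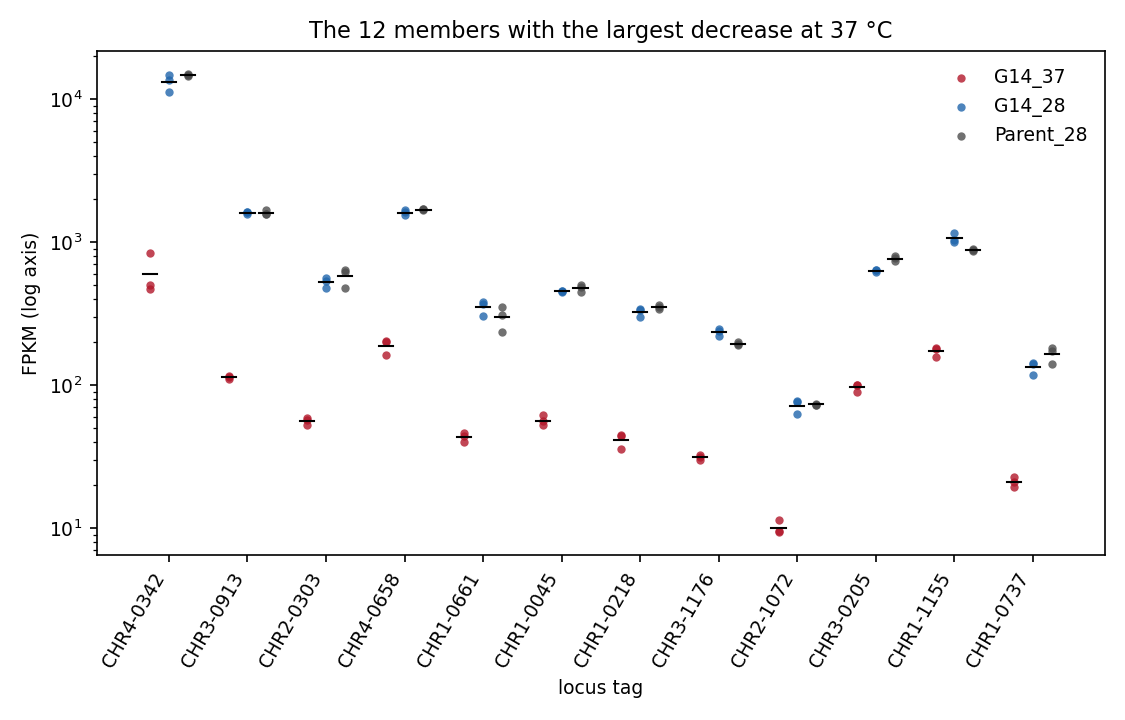
FPKM on a log axis for the 12 members with the largest decrease, with one point per library, G14_37 to the left, then G14_28 and Parent_28, and a black bar at each group mean. The red points of G14_37 lie apart from both groups at 28 °C for each tag, by a ratio of means, G14_28 over G14_37, from 6.199 for CHR1-1155 to 21.9 for CHR4-0342.

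Members were more abundant at 28 °C than the tags at large. The rule used these levels, and a gene could reach 5 FPKM through its 28 °C groups alone, so the comparison is a description only. The median of their mean levels was 107 FPKM in G14_37, 364 FPKM in G14_28 and 351 FPKM in Parent_28, while the median over the 5368 tags was 68.5, 69.5 and 70.2 FPKM in the same order of groups. Of the 100 tags with the highest mean in each group, 8 were members in G14_37, 22 in G14_28 and 20 in Parent_28. In G14_28, 28 members averaged 1000 FPKM or more, 72 from 100 to 1000, 15 from 10 to 100, and 2 below 10. The median log2 difference was -1.65 in the first of these classes, -1.47 in the second, -1.37 in the third and -1.60 in the last, whose 2 members are those with few reads. Across the 117 members, the Spearman correlation of the log2 mean in G14_28 with the log2 difference was -0.27. These points share the same libraries, and the level in G14_28 enters both measures.

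CHR4-0381 was the second most abundant member, with 3786, 2772 and 2658 FPKM in G14_37, against 7671, 8219.5 and 7942 FPKM in G14_28 and 8169.6, 8936 and 9316 FPKM in Parent_28. It remained among the 20 tags with the highest mean at 37 °C, the only member to do so, where its rank was 14 in G14_37 and 9 in both groups at 28 °C. CHR1-0726 had 1248, 1070.2 and 1087 FPKM in G14_37, against 5075, 5035 and 4738 FPKM in G14_28 and 5572, 5703 and 5852 FPKM in Parent_28. Its ratio of means, G14_28 over G14_37, was 4.36, against 2.59 for CHR4-0381. Both are short, with lengths of 339 and 534 bases.

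CHR2-0411 had 1354, 1246 and 1188 FPKM in G14_37, against 4178, 4122 and 3937 FPKM in G14_28 and 4036, 3927 and 3996 FPKM in Parent_28, and CHR2-0790 had 1333, 1119 and 1108 FPKM in G14_37, against 3851, 3844 and 3696 FPKM in G14_28 and 4045, 3944 and 4002 FPKM in Parent_28. Their log2 differences were -1.69 and -1.68. CHR3-0349 had 970.0, 1080.0 and 1161 FPKM in G14_37, against 2554, 2551 and 2695 FPKM in G14_28 and 2706, 2663 and 2722 FPKM in Parent_28. Its tag number directly precedes that of CHR3-0350, one of the tags set aside by the rule, and its log2 difference of -1.28 is near the limit of the rule. Groups do not overlap between 37 °C and 28 °C for any of these abundant members, which the rule favours. Over all tested tags, all G14_37 values lay below all G14_28 values in 38.4% and below all Parent_28 values in 40.9%.

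Together, the members made up 3.71 to 3.83% of the summed FPKM of the G14_37 libraries, 9.74 to 10.1% of those of G14_28 and 9.64 to 9.81% of those of Parent_28. CHR4-0342 alone held 0.067 to 0.11% in G14_37, 1.18 to 1.46% in G14_28 and 1.37 to 1.42% in Parent_28. Counted in reads, which weigh long genes more, the members held 3.27 to 3.29% in G14_37, 7.95 to 8.13% in G14_28 and 7.99 to 8.05% in Parent_28. These shares do not depend on the scaling between libraries. In bulk RNA, a lower share of a transcript and a higher share of the rest cannot be told apart.

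**Figure D3:**
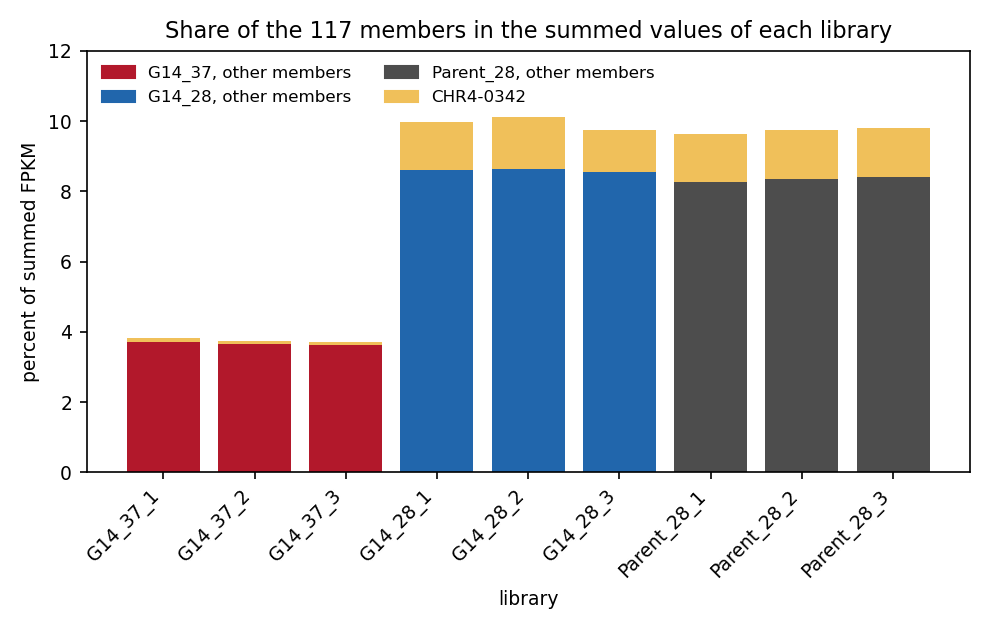
Percent of the summed FPKM of each library taken by the 117 members, with CHR4-0342 in yellow on top of the other members. The bars reach 3.71 to 3.83% in G14_37, 9.74 to 10.1% in G14_28 and 9.64 to 9.81% in Parent_28.

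Between G14_28 and Parent_28 the members differed little, as the rule requires. The log2 difference ranged from -0.39 to 0.40, with a median of -0.011 and quartiles of -0.17 and 0.17. It was negative for 62 members and positive for 55, under 0.1 in size for 38, and 0.3 or more in size for 24. None of the 117 was called between the strains by limma with the limit on the fold change, against 3.58% of the 5448 tags tested, a count that the rule fixes. With an adjusted p under 0.05 alone, 62 members differed between the strains, which is 53.0% of them, against 66.3% of all tested tags. The G14_28 and Parent_28 values did not overlap in 71 members, or 60.7%, against 71.3% of all tested tags. The members that differed did so by less than the limit of the rule.

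The members closest to that limit were CHR3-0912, at 0.40, and CHR1-1542, at 0.38, on the higher side, and CHR1-1067 and CHR1-0419, at -0.39 and -0.38, on the lower side. CHR1-1067 had 270.3, 257 and 255 FPKM in G14_37, against 794, 809 and 746 FPKM in G14_28 and 997, 1018 and 1062 FPKM in Parent_28, and its groups fall in 3 separate steps. CHR1-1542 had 303, 432 and 396 FPKM in G14_37, against 953, 1086 and 999.7 FPKM in G14_28 and 746, 722 and 863 FPKM in Parent_28, with the opposite order of the strains at 28 °C. CHR1-0419 had 739, 549 and 582 FPKM in G14_37, against 1729, 1691 and 1506 FPKM in G14_28 and 2205, 2103 and 2079.9 FPKM in Parent_28. Just outside, CHR2-1221 and CHR4-0653 had strain differences of 0.40 and 0.41, and CHR1-0767 and CHR2-0484 had -0.44 each, with temperature differences of -1.37, -1.24, -1.63 and -1.28 that would have met the rule.

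Set against the WT at 28 °C, where strain and temperature differ together, the mutant at 37 °C had lower values of the members, with a median log2 difference of -1.56. The range was from -4.66 to -0.92, with quartiles of -1.81 and -1.32. This comparison shares its G14_37 libraries with the one before, and its values are the sum of the 2 differences that the rule used. Limma called 113 of the 117 members lower in G14_37 than in Parent_28, against 8.48% of the 5451 tags tested. Under the scaling to summed reads it called 68 members, against 3.67% of 5449 tags tested. All G14_37 values lay below all Parent_28 values in 117 members, against 40.9% of the tested tags. The lowest Parent_28 value was at least 2 times the highest G14_37 value in 100 members. The rule favours this gap too, and it was not counted over all tested tags. The 4 members that were not called, CHR1-1423, CHR4-0597, CHR3-0160 and CHR3-1688, had differences from -0.99 to -0.92, short of the limit on the fold change. They were named after their values had been seen. Each was higher in G14_28 than in Parent_28, which the rule fixes for any member that falls short of that limit. For the 62 members with a lower value in G14_28 than in Parent_28 the median difference between G14_37 and Parent_28 was -1.67, and for the other 55 it was -1.33, while the medians between G14_37 and G14_28 were -1.49 and -1.48.

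**Figure D4:**
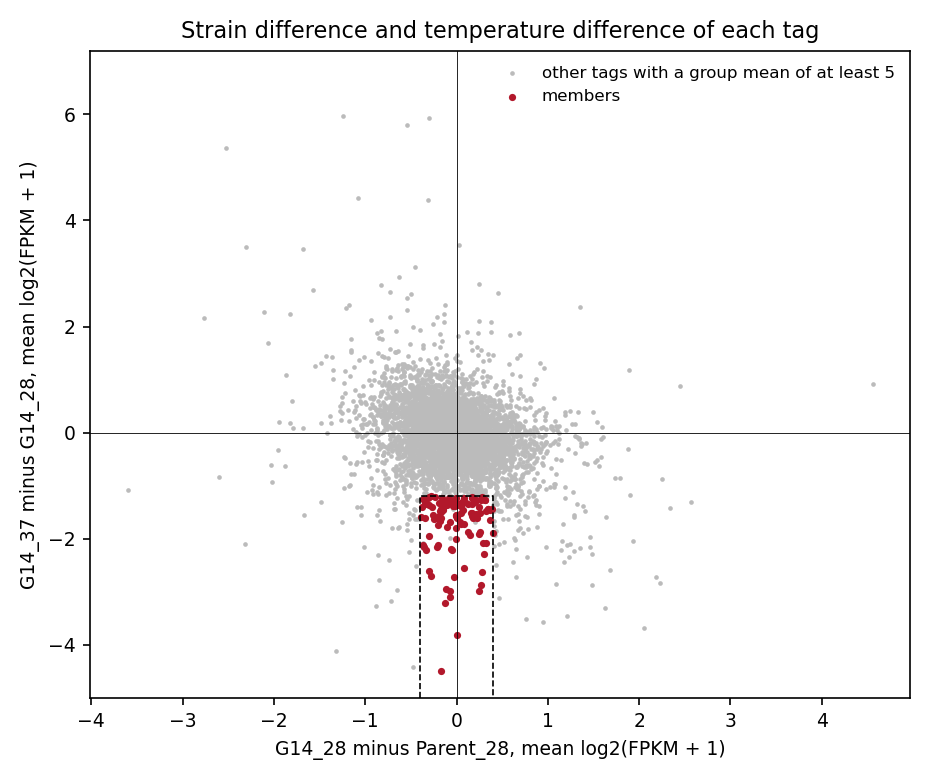
Each point is a tag with a group mean of at least 5 FPKM, with the difference between G14_28 and Parent_28 across and that between G14_37 and G14_28 upwards, both on the log2(FPKM + 1) scale. The 117 members in red fill the dashed area set by the rule, from -0.39 to 0.40 across and from -4.49 to -1.203 upwards, and the grey points inside it are the 7 tags that were set aside.

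The members are the middle part of a larger set. Of 254 tags with a mean of 5 FPKM and a decrease of at least 1.2 at 37 °C, 42 were lower in G14_28 than in Parent_28 by 0.4 or more, 88 were higher by 0.4 or more, and 124 fell between. The median log2 difference between G14_37 and G14_28 was -1.48 for the members, -1.63 for the 42 tags and -1.66 for the 88 tags. A difference of -2 or below was found in 20.5% of the members, in 31.0% of the 42 tags and in 36.4% of the 88 tags. Median levels in G14_28 were 364 FPKM for the members, 250.1 FPKM for the 42 tags and 215 FPKM for the 88 tags. Tags set aside by the rule were not removed from the 254, so the 42 and the 88 may hold some, while the members hold none. No test was made of these differences, since all of the sets were cut from the same values.

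Within the groups, the replicates of the members lay about as close as those of other tags. The median SD of log2(FPKM + 1) over the members was 0.11 in G14_37, 0.068 in G14_28 and 0.051 in Parent_28, against 0.090, 0.068 and 0.059 over the 5368 tags. These spreads were not used by the rule. In the third G14_28 library, 28 of the 117 members lay above their group mean, against 80 and 78 in the first and second, so that this library had the lower values of most members. The median deviation there was -0.040 on the log2 scale. In the first library of G14_37, 59 members lay above both other replicates, or 50.4%, against 43.5% of the 5368 tags. The deviation of the members from the mean of the other two was 0.057 in the median, against 0.014 over the 5368 tags. Without that library, 119 tags met the rule, 111 of them among the 117, and the median difference between G14_37 and G14_28 of the 117 was -1.53.

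The 3 members with the widest spread were CHR3-0916, CHR2-0225 and CHR4-0342. The first of these had 4.36, 0 and 3.11 FPKM in G14_37, against 6.45, 6.76 and 9.88 FPKM in G14_28 and 11.9, 14.2 and 5.58 FPKM in Parent_28, from 6, 0 and 4 reads in G14_37, 6, 6 and 9 reads in G14_28 and 11, 13 and 5 reads in Parent_28. CHR2-0225 had 0.73, 1.56 and 4.67 FPKM in G14_37, against 8.60, 12.4 and 4.39 FPKM in G14_28 and 5.43, 11.0 and 7.82 FPKM in Parent_28, from 1, 2 and 6 reads in G14_37, 8, 11 and 4 reads in G14_28 and 5, 10 and 7 reads in Parent_28. Both have a length of 75 bases, the shortest among the members, and standard errors of 0.57 and 0.48 for their difference between the temperatures. At this depth, their log2 differences of -1.61 and -1.60 rest on few reads. For CHR3-0916 the difference was -0.87 without the second G14_37 library, short of the limit of the rule, and -2.76 with a pseudocount of 0.1. For CHR2-0225 it was -2.07 both with that pseudocount and without the third G14_37 library, and -1.22 without the first. The G14_37 and G14_28 read numbers overlap in CHR2-0225 and share a value of 6 in CHR3-0916. The other 115 members had at least 48 reads in every library, and the median over members and libraries was 3289 reads.

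Recovered lengths of the members ranged from 75 to 4455 bases, with a median of 984 bases and quartiles of 567 and 1512 bases. Over the 5368 tags the median was 1161 bases, with quartiles of 711 and 1770 bases, so members tended to be shorter. The Spearman correlation of length with the temperature difference over the members was 0.13. The longest members were CHR2-0317 with 4455 bases, CHR1-0424 with 4158 bases and CHR1-1547 with 3966 bases. CHR2-0317 had 25.6, 28.0 and 27.0 FPKM in G14_37, against 81.8, 84.1 and 78.2 FPKM in G14_28 and 80.5, 82.8 and 82.0 FPKM in Parent_28, and its values in the strains overlap at 28 °C. CHR1-0424 had 43.0, 41.8 and 38.1 FPKM in G14_37, against 134, 132 and 127 FPKM in G14_28 and 102, 99.7 and 101 FPKM in Parent_28, and CHR1-1547 had 50.4, 48.7 and 48.3 FPKM in G14_37, against 148, 141 and 141 FPKM in G14_28 and 122, 118 and 116 FPKM in Parent_28. For all 3 the groups do not overlap between the temperatures, with standard errors from 0.050 to 0.060 for differences from -1.65 to -1.52. The rule favours this separation. Over all tested tags, the share with all G14_37 values lower was 38.4% against G14_28 and 40.9% against Parent_28.

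Members were found on all 4 chromosomes. Chromosome 1 held 39 members or 2.36% of its 1650 tags with a level of 5, chromosome 2 held 21 or 1.55% of 1359, chromosome 3 held 31 or 2.39% of 1299, and chromosome 4 held 26 or 2.45% of 1060. Tag numbers give the order of genes along a chromosome as far as they were assigned in order, which was not checked against coordinates. Most members stood singly, and 12 of the 117 had another member at the next or the previous tag number. These form 2 rows of 3 members and 3 pairs. A further 3 pairs are separated by a single tag number, CHR2-0790 with CHR2-0792, CHR3-1038 with CHR3-1040 and CHR4-0347 with CHR4-0349.

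The first row of 3 runs from CHR1-1153 to CHR1-1155, and its decrease grew along the row, with log2 differences of -1.38, -1.79 and -2.63. CHR1-1153 had 740.1, 700.5 and 705 FPKM in G14_37, against 1793, 1890.4 and 1887 FPKM in G14_28 and 1663, 1831 and 1890.2 FPKM in Parent_28. CHR1-1154 had 135, 155 and 158 FPKM in G14_37, against 521, 519 and 515 FPKM in G14_28 and 517, 510.1 and 539 FPKM in Parent_28, and the strains overlap at 28 °C in both tags. The tag before the row, CHR1-1152, had a difference of -1.04 and so missed the limit, and the tag after it, CHR1-1156, had -0.67. Farther out, CHR1-1151 and CHR1-1157 had differences of -0.066 and 0.041.

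The other row runs from CHR3-0911 to CHR3-0913 and is graded in the same way, at -1.46, -1.88 and -3.81. CHR3-0911 had 84.9, 88.8 and 89.3 FPKM in G14_37, against 243, 249.9 and 238 FPKM in G14_28 and 199.7, 187 and 179 FPKM in Parent_28, and CHR3-0912 had 63.9, 69.9 and 71.6 FPKM in G14_37, against 253, 257 and 256 FPKM in G14_28 and 193, 199 and 189 FPKM in Parent_28. Both were higher in G14_28 than in Parent_28 without overlap, by 0.37 and 0.40, whereas CHR3-0913 differed by 0.00097 between the strains. CHR3-0910 before the row had a difference of -0.86. After the row, CHR3-0914 had the opposite sign at 1.53, from a length of 117 bases and means of 6.47 FPKM in G14_37, 1.63 FPKM in G14_28 and 4.91 FPKM in Parent_28. CHR3-0916, the member with few reads, lies 3 tag numbers after the row.

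**Figure D5:**
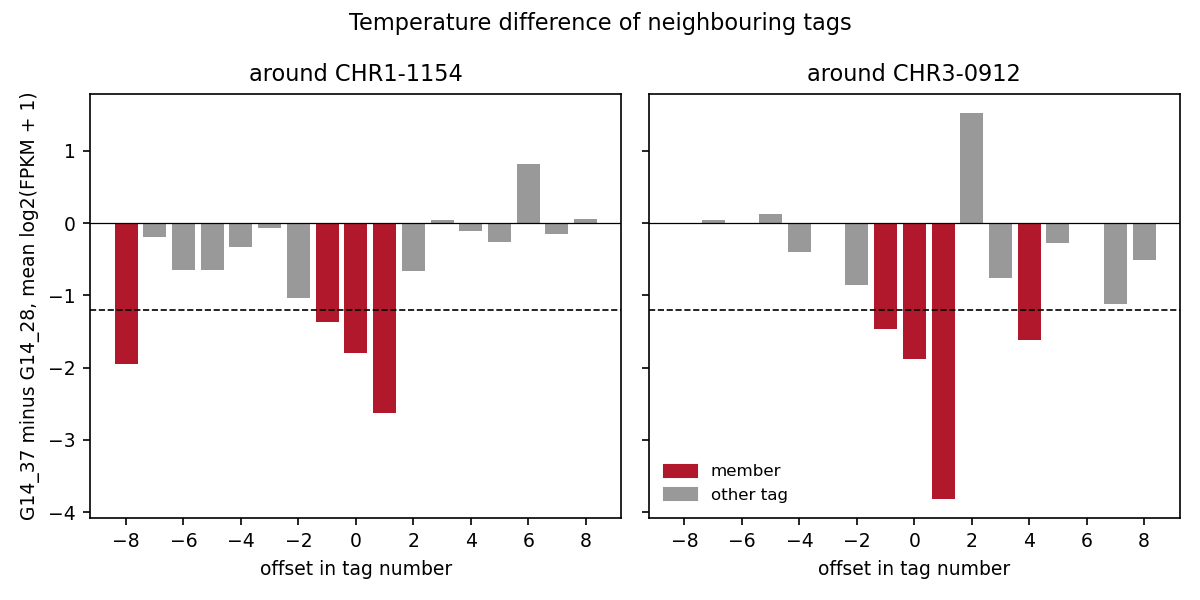
Difference between G14_37 and G14_28 in mean log2(FPKM + 1) for tags up to 8 numbers from CHR1-1154 and from CHR3-0912, with members in red, other tags with a level of 5 in grey and the limit of -1.2 dashed. The other tags lie from -1.04 to 0.81 around CHR1-1154 and from -1.12 to 1.53 around CHR3-0912.

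The 3 pairs were CHR1-0953 with CHR1-0954, at -1.27 and -1.46, CHR2-1287 with CHR2-1288, at -1.44 and -1.31, and CHR3-1175 with CHR3-1176, at -1.62 and -2.88. CHR3-1175 had 450.1, 401 and 302 FPKM in G14_37, against 1157, 1119.9 and 1232 FPKM in G14_28 and 1403, 1302 and 1469 FPKM in Parent_28. It was more abundant at 28 °C than its neighbour CHR3-1176 and less lowered. These pairs were named after their values had been seen.

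In the deposited values, the tags next to a member tended to have lower differences between G14_37 and G14_28 than the tags at large. Of 192 tags at a level of 5 that adjoin a member and are none themselves, 71.4% had a negative difference between G14_37 and G14_28, against 51.7% of the 5368 tags. Their median was -0.21, against -0.022 over the 5368 tags. Scaled to summed reads, the 5368 tags had a median of 0.37, and the neighbours were not counted on that scale. A difference of -1 or below was found in 23 of them, or 11.98%, against 7.10% of the 5368. The counting tool was featureCounts, but whether strand was used is not given in the sources used here. Reads shared by overlapping neighbours were not tested.

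The limit of -1.2 cuts through a continuous range of values. Just inside were CHR1-1044, CHR1-0862, CHR3-1688 and CHR3-2293, at -1.215, -1.208, -1.206 and -1.203, and just outside were CHR4-0901, CHR4-0736, CHR4-0961 and CHR2-0418, all at -1.19. CHR1-1044 had 175, 144 and 147 FPKM in G14_37, against 373, 375 and 335 FPKM in G14_28 and 458, 449.5 and 429 FPKM in Parent_28. CHR1-0862 had 66.1, 69.2 and 81.6 FPKM in G14_37, against 170.0, 168 and 165 FPKM in G14_28 and 206, 194 and 193 FPKM in Parent_28. Neither overlaps between the temperatures. The rule favours this, and over all tested tags all G14_37 values lay below all G14_28 values in 38.4%. CHR3-1688 had 19.8, 16.6 and 20.6 FPKM in G14_37, against 44.7, 42.9 and 47.3 FPKM in G14_28 and 39.3, 34.2 and 37.0 FPKM in Parent_28, and CHR3-2293 had 82.9, 75.6 and 69.2 FPKM in G14_37, against 177, 177 and 173 FPKM in G14_28 and 212, 209 and 219.7 FPKM in Parent_28. Outside the limit, CHR4-0736 had 96.8, 105 and 101 FPKM in G14_37, against 225, 240.2 and 230.3 FPKM in G14_28 and 235, 233 and 228 FPKM in Parent_28, which do not overlap between the temperatures either.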

How the data were processed

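RNA of 9 cultures was sequenced, 3 in each of the groups G14_37, G14_28 and Parent_28. The authors deposited one table of normalised values, which are not labelled with a unit and were read as FPKM from the values themselves. The submitters' processing notes name CASAVA, HISAT2 2.0.5 and featureCounts 1.5.0-p3. Apart from the prefix of the locus tags, the genome build and annotation are not named in the sources used here. The scaling between libraries is not given there either. Reads and lengths were recovered from the steps between low values, with 100% of 49103 values whole within 0.01 reads. Of the recovered lengths, 98.2% were multiples of 3. Whether a tag codes for protein is not known from the values.

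Values were compared as log2(FPKM + 1), a scale that understates the change of low genes, with limma 3.58.1 in R 4.3.3 on the deposited FPKM, one fit per pair of groups. P-values were adjusted by Benjamini-Hochberg over all tags tested. The limma step was tested on simulated data. Members, thresholds and named tags were chosen with earlier results of these data known. Named tags were the 12 with the largest decrease, the 6 with the highest level, those in rows of 3 neighbours, the 3 longest, the 3 shortest, the 3 with the widest spread and those next to each limit of the rule. Gene lists of pathways were not run, because no tag could be paired with a gene name. Alternatives were another scaling, other pseudocounts, limits and filters, a replicate block and the removal of each library. The replicates are cultures as the study describes them, and read-based limits cover counting error only.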

Additional observations from a re-analysis of the deposited data

How the results depend on the processing

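With values scaled to the summed reads, 46 tags met the rule. The median difference between G14_37 and G14_28 of the 117 members was then -1.08 on the log2 scale. With this scaling, 71 members were called lower in G14_37 than in G14_28, against 3.19% of all tested tags. Lower in G14_37 than in Parent_28 were 68 members, against 3.67%. Of the 33 named members, 30 moved by more than their spread under this scaling. That spread is not the limma standard error, and CHR4-0342, at -4.09 in place of -4.49, was not counted as moved. The change of scaling applies to all tags of a library, so these are not separate shifts of single members. Between G14_28 and Parent_28, 62 members were called with an adjusted p alone in place of 0 with the limit on the fold change. Over all tested tags, 66.3% were called with an adjusted p alone.

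Leaving out one library at a time gave 114 to 124 member tags and a median difference of -1.53 to -1.45. Median centring gave 111 tags. Limma-voom on the recovered reads and limma with a replicate block each called 117 members lower in G14_37 than in G14_28. Over all tested tags, 7.24 and 7.09% were called, in the same order. Each called 0 members between G14_28 and Parent_28, against 3.67 and 3.58% of all tested tags. Each called 113 members lower in G14_37 than in Parent_28, against 8.73 and 8.46%. Neither changed these member counts, which the rule largely fixes. The deviations of same-numbered libraries of G14_37 and G14_28 correlated across tags at 0.25, -0.14 and 0.15. With mixed signs and so few replicates, these values neither show nor exclude that the numbers pair the cultures. Depth limits CHR3-0916 and CHR2-0225, which had under 20 reads in every library.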

Other observations

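Another feature met the numeric limits of the rule without being a tag of a chromosome. This feature, listed without a locus tag, had 3.76, 4.05 and 4.03 FPKM in G14_37, against 19.1, 15.7 and 18.5 FPKM in G14_28 and 15.3, 13.2 and 13.2 FPKM in Parent_28. Its log2 difference was -1.92 between G14_37 and G14_28 and 0.33 between G14_28 and Parent_28. It was singled out after its values had been seen.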
